A study of Mus musculus with 2 samples.

Results

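The red cell membrane and skeleton genes Slc4a1, Ank1, Sptb, Epb41, Epb42, Rhag, Rhd and Kel were followed through the erythroid cells of mouse bone marrow. They were taken by symbol from the gene table of the deposited matrices, and each of the 8 was found once among 32285 genes. Whole femoral bone marrow of 2 mice, both 2 months old, was sequenced as single cells with Chromium 3' v3 chemistry, which counts each captured transcript once, near its 3' end, by a unique molecular identifier (UMI). The control, labelled WT, was a littermate with Ddx41 fl/fl and wild-type cGas but no VavCre. The DKO mouse was VavCre:Ddx41 fl/fl cGas-/-, so that Ddx41 was deleted where Vav-Cre acts, in hematopoietic cells and, per the study, also in oocytes and endothelial cells, while cGas was lost in all cells. The comparison asks how erythroid cells of a mouse lacking both genes differ from those of a littermate. The 2 mice differ in Ddx41, cGas and Cre together, and the parts of these cannot be told apart. There was 1 library per genotype, so no difference was tested and every interval below is a 95% interval that covers counting error only.

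The membrane of a red cell is held in shape by a protein network on its inner face. Band 3, the chloride and bicarbonate exchanger encoded by Slc4a1, is tied through ankyrin (Ank1) to spectrin, whose beta chain comes from Sptb, and protein 4.2 (Epb42) stabilizes that link. Protein 4.1 (Epb41) joins the ends of spectrin to short actin filaments, and inherited faults in several of these proteins cause spherocytosis or elliptocytosis. The Rh-associated glycoprotein (Rhag) and the Rh protein (Rhd) form a membrane complex connected to the same anchor, and Kel encodes the Kell blood group protein.

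The genes lie on 7 chromosomes of GRCm38 (GENCODE M21), Slc4a1 at chr11:102348824-102366203 on the minus strand, Ank1 at chr8:22974844-23150497 on the plus strand, Sptb at chr12:76580488-76710547 on the minus strand and Epb41 at chr4:131923413-132075321 on the minus strand. Epb42 lies at chr2:121017891-121037072 (minus), Rhag at chr17:40811126-40840754 (plus), Rhd at chr4:134864536-134896172 (plus) and Kel at chr6:41686330-41704339 (minus). Between 0% and 2.59% of the 31-base words in the last 300 bases of their coding transcripts occurred in transcripts of another gene, with the highest share in Rhag. Ank1 overlaps 5 annotated genes, Epb41 overlaps 3, Sptb overlaps 2 and Kel overlaps 1. In Ank1, Epb41 and Kel at least 1 of them is on the same strand, so a few reads there could belong to the neighbour. Those of Sptb are on the opposite strand.

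The 3 blood group and Rh complex genes are shown by the 250 bases before their RefSeq start (GRCm38.p6), since their ratios between the libraries differed from each other while all 3 carry letters that the erythroid factor GATA1 is known to prefer. The last bases of the Kel and Rhag windows lie inside the GENCODE gene, which starts further upstream. Capitals mark AGATAA or TGATAA on either strand. These letters were chosen after some of the windows had been looked at. The window of Rhd is chr4:134864286-134864535 on the plus strand, that of Kel chr6:41704326-41704575 on the minus strand and that of Rhag chr17:40810899-40811148 on the plus strand.
Rhd: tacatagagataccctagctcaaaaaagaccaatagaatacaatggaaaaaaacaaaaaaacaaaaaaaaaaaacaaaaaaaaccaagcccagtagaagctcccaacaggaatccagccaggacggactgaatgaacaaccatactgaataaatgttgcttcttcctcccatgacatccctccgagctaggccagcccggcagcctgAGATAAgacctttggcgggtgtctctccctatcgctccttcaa
Kel: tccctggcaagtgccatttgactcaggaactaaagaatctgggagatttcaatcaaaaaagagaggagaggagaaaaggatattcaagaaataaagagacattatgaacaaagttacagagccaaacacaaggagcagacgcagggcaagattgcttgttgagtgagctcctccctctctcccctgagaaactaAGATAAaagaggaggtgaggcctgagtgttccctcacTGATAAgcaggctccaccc
Rhag: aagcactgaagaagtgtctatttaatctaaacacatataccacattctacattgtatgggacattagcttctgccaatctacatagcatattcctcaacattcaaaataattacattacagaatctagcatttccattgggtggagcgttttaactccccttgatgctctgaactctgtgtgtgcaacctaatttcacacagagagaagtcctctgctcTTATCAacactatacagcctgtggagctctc

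AGATAA began 43 bases before the start of Rhd. Kel held AGATAA 56 bases and TGATAA 19 bases before its start, and Rhag held TGATAA on the other strand, printed as its reverse complement, at 31 bases. Epb42 also held AGATAA, on the other strand and 226 bases before its start, whereas Sptb and the 3 listed starts of Epb41 held neither. Windows of the same length held AGATAA or TGATAA in 16.6% of 32851 listed promoters, so a match is a description of these letters and not of a bound site. Slc4a1 and Ank1 had no entry in the promoter table.

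The control library held 135693452 UMIs over all its barcodes, from which 18677 cells were kept, with a median of 4883 UMIs. The DKO library was deposited as called cells only and gave 13719 kept cells with a median of 6900 UMIs. The libraries shared 81 cell barcodes. Levels are in CPM, the count a gene would have if the summed UMIs were scaled to 1e6. Over all kept cells Ddx41 was at 20.3 CPM in control and at 7.99 CPM in DKO cells, and Cgas at 13.6 and 7.24 CPM. A 3' tag outside a deleted part does not check a genotype, and where the deletions lie was not given in the sources used here. Clusters with raised erythroid markers held 7563 control and 6381 DKO cells, and these were ordered by the share of their UMIs that came from hemoglobin genes. The ranges were under 15%, 15 to 40%, 40 to 75%, 75 to 90%, and 90% or more, which held 996, 548, 1211, 3450 and 1358 control cells and 710, 497, 1209, 1393 and 2572 DKO cells. Kit, the receptor of early progenitors, was at 27.6 CPM (control) and 32.7 CPM (DKO) under 15% and at most 1.55 CPM in later ranges. Tfrc, the transferrin receptor, was highest at 15 to 40% (695 and 915 CPM), and Bpgm, a glycolytic enzyme of late erythroid cells, was highest at 75 to 90% (2835 and 2027 CPM). By these markers the ranges ran from earlier to later cells in both libraries, but the first range was mixed and of low depth. Its median was 1370.5 UMIs in control and 1595.5 UMIs in DKO cells. Cluster 12, with a median of 1188 UMIs, held 41.3% of its control and 44.9% of its DKO cells. Cluster 22, named late erythroid-like, held 12.2% and 7.32%. A range is not a cell type, and 1362 of the 3450 control cells and 688 of the 1393 DKO cells at 75 to 90% lay within 2 percentage points of a limit. Because counting was at the 3' end, levels were not divided by length, and levels of different genes are not ranked.

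In CPM of all UMIs, band 3, ankyrin, beta spectrin and protein 4.2 were highest in the early and middle ranges in both libraries. They became scarce as hemoglobin filled the cell. Slc4a1 in the control library was at 583 CPM under 15%, then 1556, 1623, 517 and 128 CPM in the following ranges. In the DKO library it was at 611, 1729, 1990, 970 and 291 CPM. Both libraries were highest at 40 to 75%, and the last range was 12.7-fold below that in control and 6.84-fold below it in DKO cells. Epb42 followed a like course, with 118, 278, 349, 115 and 24.0 CPM in the control library. Its DKO levels were 120, 298, 440, 206 and 41.8 CPM. As for Slc4a1, the highest level was at 40 to 75% in both libraries.

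Ank1 and Sptb, which connect band 3 to the spectrin network, were highest earlier on the scale of all UMIs, at 15 to 40%. Ank1 was at 557, 897, 556, 46.8 and 12.5 CPM across the ranges of the control library. The DKO library gave 641, 1130.1, 893, 124 and 20.7 CPM. From the highest to the lowest range, the level of Ank1 differed 71.7-fold (control) and 54.7-fold (DKO). Sptb was at 467, 806, 458, 52.2 and 17.1 CPM in the control library. In the DKO library it was at 553, 979, 741, 104 and 28.9 CPM. The DKO level lay above the control level in every range for Ank1 and Sptb, without overlap of the Poisson intervals.

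Epb41, the junction protein, differed in its course from the other 7 members. It stood at 663, 784, 1418, 835 and 494 CPM in the control library. In the DKO library it was at 639, 857, 1680.4, 1453 and 838 CPM. The highest and lowest ranges of Epb41 differed 2.87-fold (control) and 2.63-fold (DKO), against 6.84-fold to 133-fold for the other members. Its DKO minimum lay under 15%, while the control minimum lay at 90% or more.

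Rhag and Rhd, the Rh complex genes, were the steepest members. Rhag was at 392, 548, 537, 47.8 and 6.46 CPM in the control library and at 443, 620, 617, 122 and 4.65 CPM in the DKO library. Rhd was at 721, 1431, 1280.0, 96.1 and 13.1 CPM in the control library. Its DKO levels were 533, 1171, 1193, 144 and 9.06 CPM, so that 75 to 90% was the range in which the DKO library was above the control. Kel was at 284, 428, 354, 33.4 and 11.2 CPM in the control library and at 342, 563, 525, 101 and 14.7 CPM in the DKO library. Rhag differed 84.8-fold between its highest and lowest control range and 133-fold in the DKO library, Rhd 109.5-fold and 132-fold, and Kel 38.1-fold and 38.3-fold. For Rhag the intervals of 15 to 40% and 40 to 75% overlapped in both libraries, and for Rhd they overlapped in the DKO library, so the order of those neighbours is not settled.

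**Figure D1:**
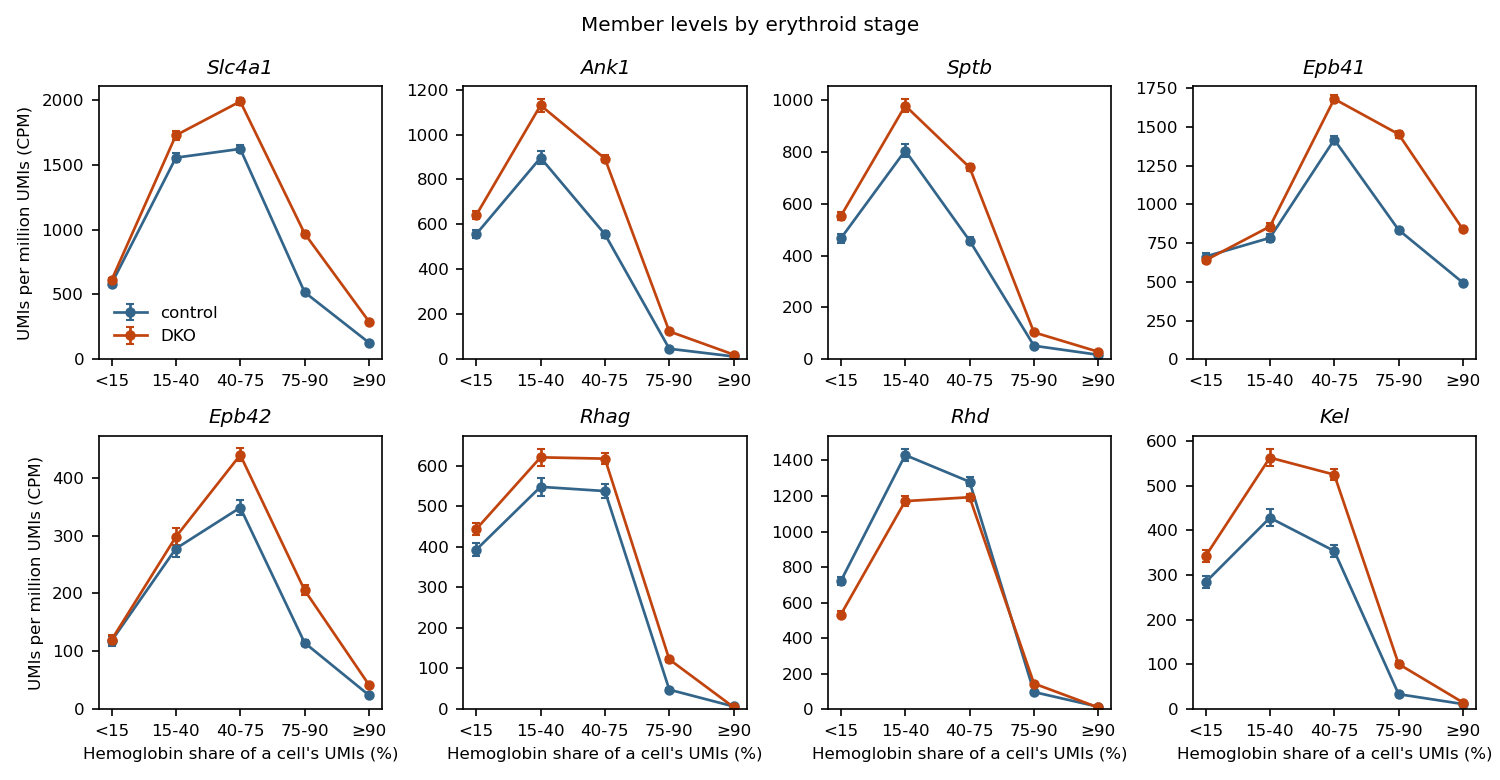
Level of each member (y axis, CPM of all UMIs, linear scale) by range of the hemoglobin share of a cell's UMIs (x axis, percent) in the erythroid cells of the control and the DKO library, with exact Poisson 95% intervals. Rhd is the member whose DKO level lies below the control level in the first 3 ranges, and Epb41 has the flattest course.

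Hemoglobin made up over 90% of the UMIs in the last range, so the CPM of every other transcript is bound to be small there. When only UMIs outside hemoglobin genes were scaled, the highest range moved for 12 of the 16 combinations of member and library. Epb41 in the control library was then at 692, 1095, 3442, 5937 and 5900 CPM, and in the DKO library at 664, 1201, 4010, 9609 and 11336 CPM. On this scale Epb41 became a larger part of the remaining RNA in late cells. Slc4a1 was at 3941 CPM at 40 to 75% and 3677 CPM at 75 to 90% in the control library, and at 4749 and 6416 CPM in the DKO library. Rhd was at 3107 CPM at 40 to 75% in the control library and 2847 CPM in the DKO library, and at 156 and 123 CPM in the last range. All members but Epb41 were lower in the last range than at 40 to 75% on both scales. The highest range stayed the same for Slc4a1, Epb42 and Sptb in the control library and for Rhd in the DKO library. Outside hemoglobin, Ank1 was highest at 40 to 75% in both libraries, and Sptb at 40 to 75% in the DKO library. Slc4a1 and Epb42 in DKO cells were then highest at 75 to 90%.

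**Figure D2:**
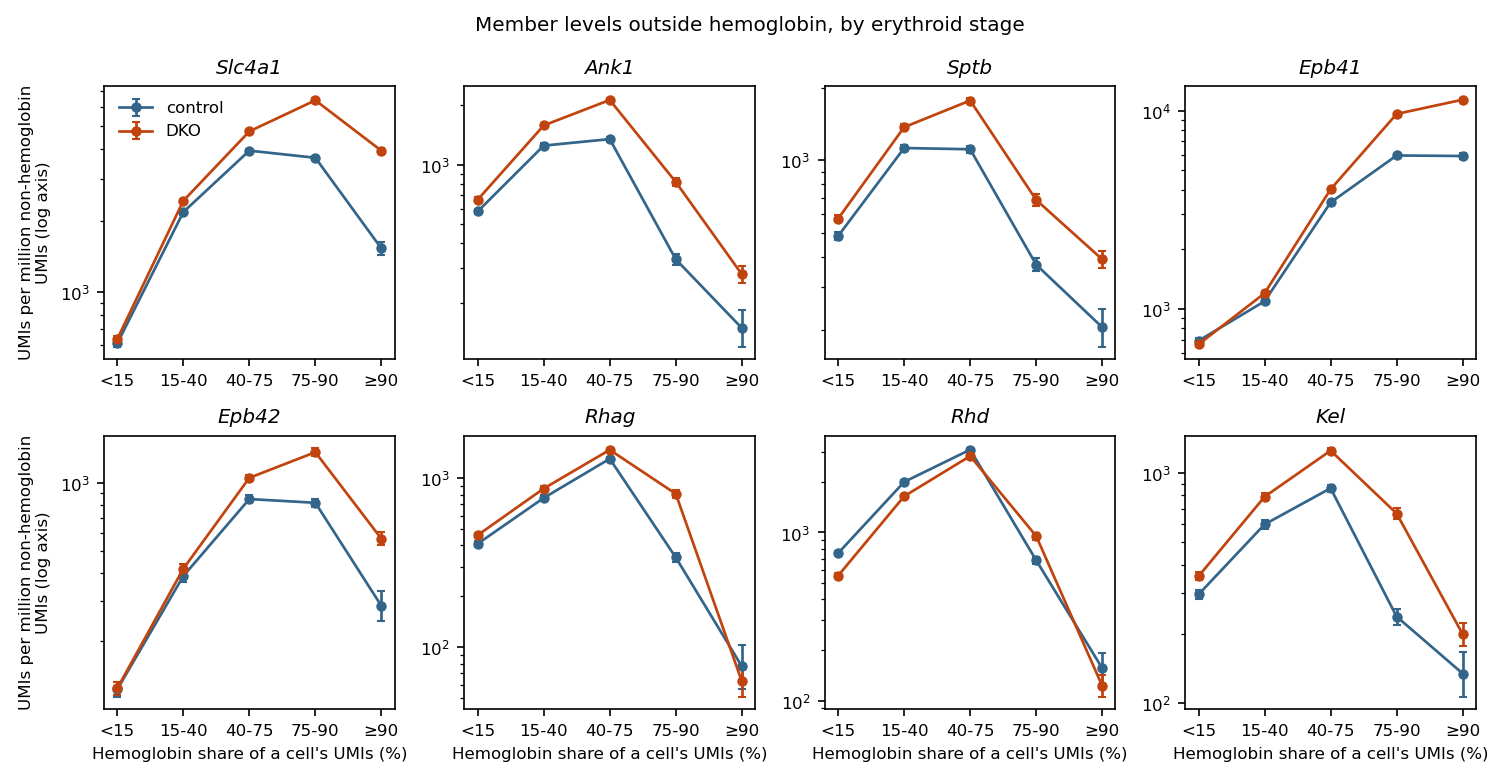
The same levels as CPM of the UMIs outside hemoglobin genes (y axis, log scale) by range of the hemoglobin share (x axis, percent), with exact Poisson 95% intervals. Epb41 stays high to the last range (5900 CPM control, 11336 CPM DKO), whereas Rhag and Rhd reach 62.9 to 156 CPM.

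In the first 2 ranges the members were close to the other genes. A gene counted as higher or lower where its CPM ratio of DKO over control was at least 1.5-fold and it reached 20 CPM in a library. Under 15%, 3.84% of 5963 genes were higher and 2.85% lower in the DKO library, and 0 of the 8 members were either. At 15 to 40%, 3.01% of 4356 genes were higher and 4.06% lower, and again 0 of 8 members were either. The median log2 ratio of the members was 0.12 under 15%, beside 0.11 over all genes, and 0.17 at 15 to 40%, beside 0.04.

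Kel, Ank1 and Sptb were on the higher side already under 15% and at 15 to 40%, and Rhd on the lower side. The log2 ratio of Kel was 0.27 (interval 0.18 to 0.36) under 15% and 0.39 (0.31 to 0.48) at 15 to 40%, where it ranked above 89.4% of all genes tested. Ank1 was at 0.20 and 0.33 and Sptb at 0.24 and 0.28. Rhd was at -0.44 (-0.50 to -0.38) under 15%, where 4.91% of genes tested lay below it, and at -0.29 (-0.34 to -0.24) at 15 to 40%. Slc4a1 (0.07), Epb42 (0.02) and Epb41 (-0.05) were near 0 under 15%, where the intervals of Epb42 and Epb41 held 0.

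At 40 to 75% ankyrin and beta spectrin had the highest ratios of the members. Ank1 was at 0.68 (0.63 to 0.73) and Sptb at 0.69 (0.64 to 0.75), above 90.7% and 91.3% of genes. These were the 2 members past 1.5-fold, and 14.1% of the 2893 genes tested were higher and 6.88% lower in this range. Kel followed at 0.57 (0.51 to 0.63), just under the fold. Slc4a1 (0.29), Epb41 (0.25), Epb42 (0.33) and Rhag (0.20) were above the median of all genes, 0.12, and Rhd was at -0.10 (-0.14 to -0.07). The median of the members was 0.31. The libraries also filled this range with different cells: cluster 7 held 44.8% of its control and 26.0% of its DKO cells, and cluster 2 held 29.9% and 42.3%. Within those clusters Ank1 was at 0.36 and 0.42 and Sptb at 0.24 and 0.43, all under the fold.

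At 75 to 90%, 7 of the 8 members were at least 1.5-fold higher in the DKO library, but so were 40.8% of the 779 genes tested, and 16.4% were lower. Kel had the highest ratio, 1.59 (1.45 to 1.74) on the log2 scale, or 3.02-fold. Ank1 was at 1.40 (1.28 to 1.53) and Rhag at 1.35 (1.23 to 1.48). Sptb (0.99), Slc4a1 (0.91), Epb42 (0.84) and Epb41 (0.80) were between 1.74-fold and 1.99-fold. Rhd, at 0.58 (0.49 to 0.68), lay on the limit, 1.498-fold, and it passed the fold in 4 of the 10 clustering starts described in the processing, so that the count was 7 or 8 with the start. Relative to the median of all genes, 4 of the 8 members were past the fold. The median of the members was 0.95 beside 0.36 over all genes, whose central 80% ran from -0.83 to 1.38, and all of the members but Kel and Ank1 lay inside that span.

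At 90% or more, 12.8% of 374 genes tested were higher and 34.2% lower. Slc4a1 was at 1.18 (1.09 to 1.29), or 2.27-fold, above 99.2% of genes. Epb41 was at 0.76 (0.71 to 0.82) and Epb42 at 0.79 (0.56 to 1.05). Ank1 (0.71, interval 0.39 to 1.07) and Sptb (0.74, 0.47 to 1.04) reached 20 CPM only in the DKO library and so could enter only by being higher. Their control levels, 12.5 and 17.1 CPM, were near those of neutrophil-like (8.90 and 11.2 CPM) and B cell-like cells (19.0 and 17.9 CPM), so the size of these differences is limited by background. These 5 members were all past 1.5-fold, and the other 3 did not reach 20 CPM in either library. For those, Kel was at 0.38 (0.03 to 0.76), Rhag at -0.49 (-0.99 to 0.06) and Rhd at -0.54 (-0.89 to -0.15). With the limits of the ranges 5 points lower, 0 members were past the fold on the higher side in the last range and 1 on the lower side. The median over all 8 members was 0.73 and that of all genes -0.26.

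**Figure D3:**
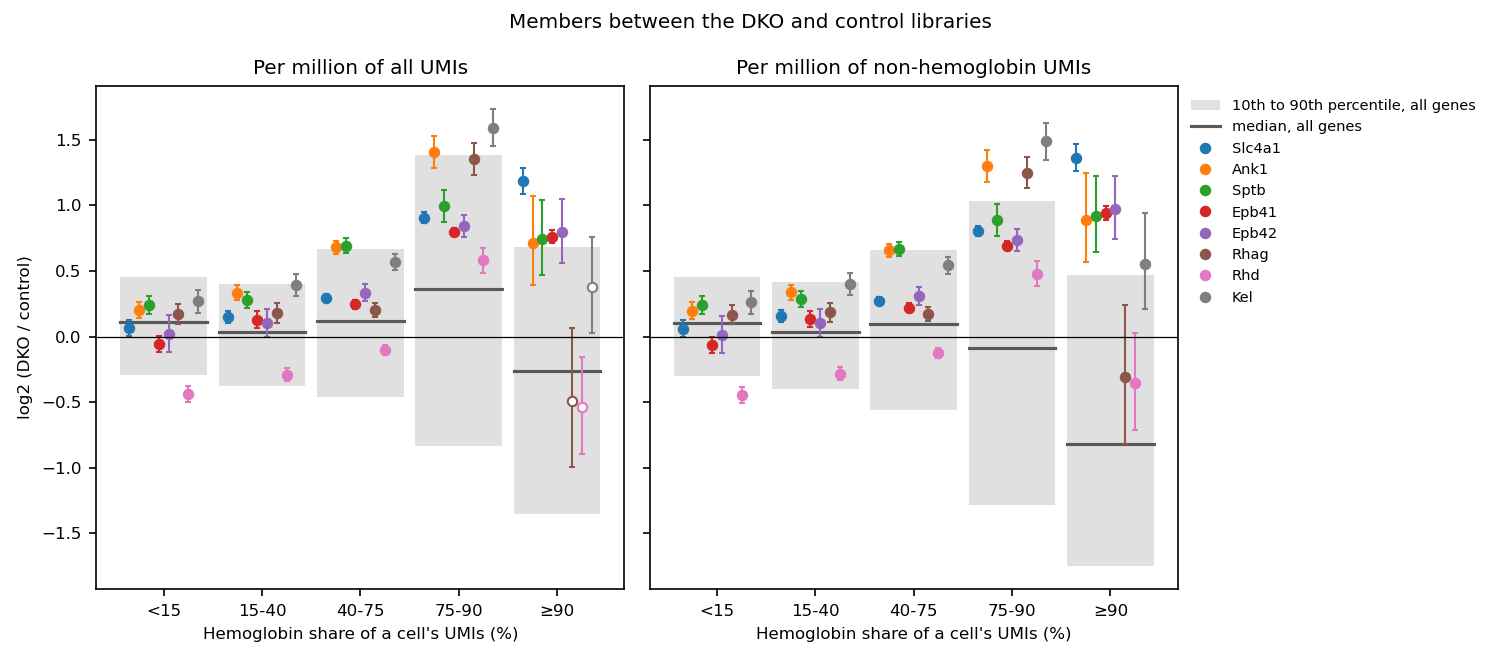
Log2 ratio of DKO over control (y axis) of each member by range of the hemoglobin share (x axis, percent), scaled to all UMIs (left) or to UMIs outside hemoglobin genes (right). Bars are exact conditional binomial 95% intervals, open circles members under 20 CPM in both libraries, grey lines and boxes the median and the 10th to 90th percentiles of all genes of at least 20 CPM, and at 75 to 90% on the left the members lie between 0.58 and 1.59 beside a median of 0.36.

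On the scale of UMIs outside hemoglobin genes, the median of the members was 0.85 at 75 to 90% and 0.91 at 90% or more, beside -0.09 and -0.82 for all genes. The 2 libraries also filled the range of 75 to 90% with different cells. Cluster 7, with hemoglobin shares of 71.9% (control) and 75.4% (DKO), held 8.96% of control and 25.6% of DKO cells of that range. Cluster 0, with 89.8% and 92.7%, held 32.0% and 14.1%. When cells were matched on the hemoglobin share in steps of 1 percentage point, which left the weight of 1393 cells in each library, the log2 ratios at 75 to 90% were 1.06 for Kel, 0.96 for Ank1, 0.78 for Sptb and 0.77 for Slc4a1. Epb41 and Rhag were at 0.69, Epb42 was at 0.64 and Rhd at 0.06. At 90% or more the matched ratio of Slc4a1 was 1.56 and that of Epb41 0.90. Matched for hemoglobin share, the members but Rhd were thus still higher in the DKO library at 75 to 90%, by less than before for each of them.

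Within clusters, most members differed by less than at 75 to 90%, and Rhd was below 0 on the log2 scale. Cluster 0, with 2221 control and 1920 DKO cells, was the most frequent cluster at 90% or more. It held 80.4% of control and 66.1% of DKO cells of that range, and cluster 1 held 17.7% and 30.1%. Of cluster 0, 1092 control and 1701 DKO cells lay at 90% or more, and 1103 control and 197 DKO cells at 75 to 90%. In cluster 0 as a whole, Slc4a1 was at 188 CPM (control) and 193 CPM (DKO) (log2 ratio 0.04, interval -0.04 to 0.12). Ank1 (-0.05) and Sptb (-0.00) likewise had intervals that held 0. Epb41 was at 601 and 822 CPM (0.45, 0.41 to 0.50) and Kel at 11.9 and 16.7 CPM (0.49, 0.18 to 0.82). Kel was at 6.20 and 6.03 CPM in neutrophil-like cells and at 10.1 and 5.06 CPM in B cell-like cells. The size of its difference in this cluster is therefore limited by background. On the scale of all UMIs, Epb42 was lower, at 30.4 and 21.1 CPM (-0.53, -0.76 to -0.30). Rhag was at 6.67 and 2.95 CPM (-1.16, -1.77 to -0.60) and Rhd at 17.2 and 5.39 CPM (-1.66, -2.08 to -1.28). These levels of Rhag and Rhd were near or below those in neutrophil-like cells (8.36 and 5.59 CPM for Rhag, 11.7 and 4.76 CPM for Rhd) and B cell-like cells (13.4 and 8.89 CPM, 22.7 and 12.9 CPM), and their ratios in this cluster are not read as a direction. The median of all genes in this cluster was -0.74, so a ratio near 0 was above most genes there, and that of Epb42 was above the median. Hemoglobin made up 89.8% of control and 92.7% of DKO UMIs of the cluster, which leaves a smaller part for every other gene in DKO cells. Ratios outside hemoglobin are not given within clusters.

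Epb41 was again higher in the next clusters. In cluster 1 (1709 control and 1270 DKO cells), Slc4a1 was at 406 and 552 CPM (0.44) and Epb41 at 731 and 1039 CPM (0.51). Rhag, at 11.5 and 7.87 CPM (-0.54, -0.97 to -0.12), was again close to the levels in those other cells. Rhd, at 34.1 and 16.5 CPM (-1.05), was above its neutrophil-like levels (11.7 and 4.76 CPM). It was nearer to its B cell-like levels (22.7 and 12.9 CPM). In cluster 7, which is rich in members (895 and 679 cells), Slc4a1 was at 1293 and 1513 CPM (0.23), Ank1 at 276 and 355 CPM (0.36) and Rhd at 615 and 435 CPM (-0.50, -0.57 to -0.43). Cluster 2, the early cells with 29.1% and 34.2% hemoglobin UMIs, gave 1396 and 1209 CPM for Rhd (-0.21) and 350.1 and 485 CPM for Kel (0.47). Cluster 13, whose hemoglobin share was 84.5% and 87.7%, held Rhd at 118 and 53.6 CPM (-1.14) and Epb41 at 768 and 1053 CPM (0.46). Clusters 12, 22 and 25, with a low median UMI count of 1188, 1445.5 and 2206.5, gave members between -0.46 and 0.47. Over the 9 erythroid clusters with at least 50 cells of each library, Rhd was below 0 in 9, and from -1.14 to -0.17 in the 7 where it reached at least 53.6 CPM in both libraries. Rhag was below 0 in 4, Ank1, Sptb and Epb42 in 3 each, Slc4a1 and Kel in 2 each, and Epb41 in 1. Taking the clusters of all 10 clustering starts, which reuse the same cells, Rhd was below 0 in 82 of 84 clusters, those near background included, and Epb41 in 12 of 84. Relative to the median of all genes of its cluster, Rhd was higher in 3 of 9 clusters. Hemoglobin took a larger share of DKO than of control UMIs in each of the 9 but cluster 12, for example 49.4% beside 31.8% in cluster 22. A larger share lowers the CPM of every other gene, and its part in the ratios of Rhd was not tested.

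**Figure D4:**
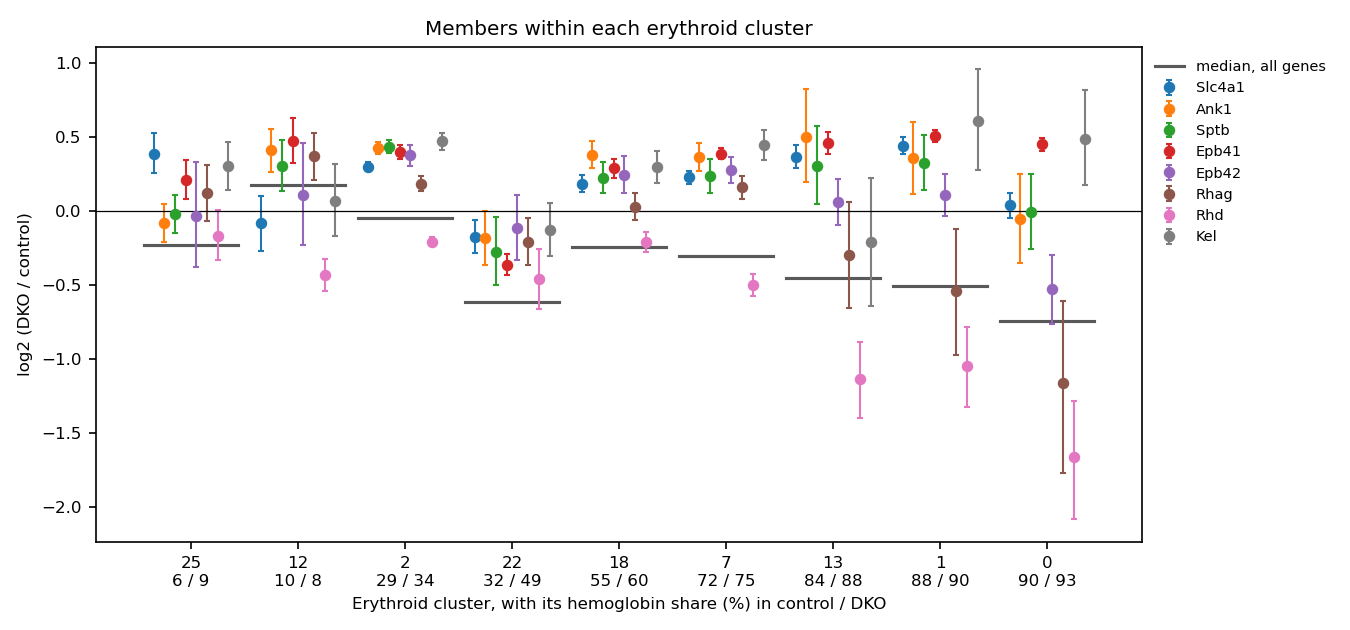
Log2 ratio of DKO over control (y axis, CPM of all UMIs) of each member within the erythroid clusters that hold at least 50 cells of each library, with exact conditional binomial 95% intervals and the median of all genes as a grey line. Clusters are ordered along the x axis by hemoglobin share, and Rhd lies below 0 in all 9 clusters shown. Its levels were near those of neutrophil-like and B cell-like cells in cluster 0, and somewhat above those of B cell-like cells in cluster 1.

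The share of cells with a UMI was compared after each cell had been thinned to 2000 UMIs, since DKO cells had the higher median count. Cells under 2000 UMIs were left out. The loss was largest under 15%, where 398 of 996 control and 312 of 710 DKO cells remained. At 15 to 40%, 11.3% of control and 26.2% of DKO cells were left out. Between 15 and 75% most cells held band 3 RNA: Slc4a1 was found in 93.4% of control and 95.9% of DKO cells at 15 to 40%, and in 92.9% and 97.2% at 40 to 75%. Rhd was found in 92.2% and 93.7% of cells at 15 to 40%, and Ank1 in 60.8% and 78.1% at 40 to 75%. These shares differed by a few points for Slc4a1 and Rhd and by more for Ank1. Over all cells at 15 to 40%, before thinning, the order was the other way. Slc4a1 was then found in 99.3% of control and 87.5% of DKO cells, and Rhd in 96.9% and 84.1%. At 75 to 90%, Slc4a1 was found in 55.0% of control and 78.8% of DKO cells, and before thinning in 78.2% and 93.8%. Epb41 was found in 78.2% and 92.3%, Ank1 in 7.31% and 18.0% and Kel in 4.92% and 13.2%. Rhd was found in 12.6% and 18.8%. Free RNA sets a floor to such shares, and in neutrophil-like cells, which should lack band 3 and had a median of 5264.5 (control) and 5564 (DKO) UMIs beside 5534 and 8298 at 75 to 90%, Slc4a1 was found in 6.25% of control and 4.18% of DKO cells and Ank1 in 1.77% and 1.23%. The shares at 75 to 90% were above that floor for all of the members. At 90% or more, Slc4a1 was found in 18.1% and 34.0% of cells and Epb41 in 60.1% and 78.0%. Rhag (1.22% and 0.636%) was there below its share in neutrophil-like cells (1.61% and 0.796%) and is read as background, while Rhd (2.89% and 2.07%) was little above it (2.04% and 0.995%). Epb41 was found in 22.0% and 28.6% of neutrophil-like cells, where its level was 137 CPM (control) and 200.04 CPM (DKO).

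**Figure D5:**
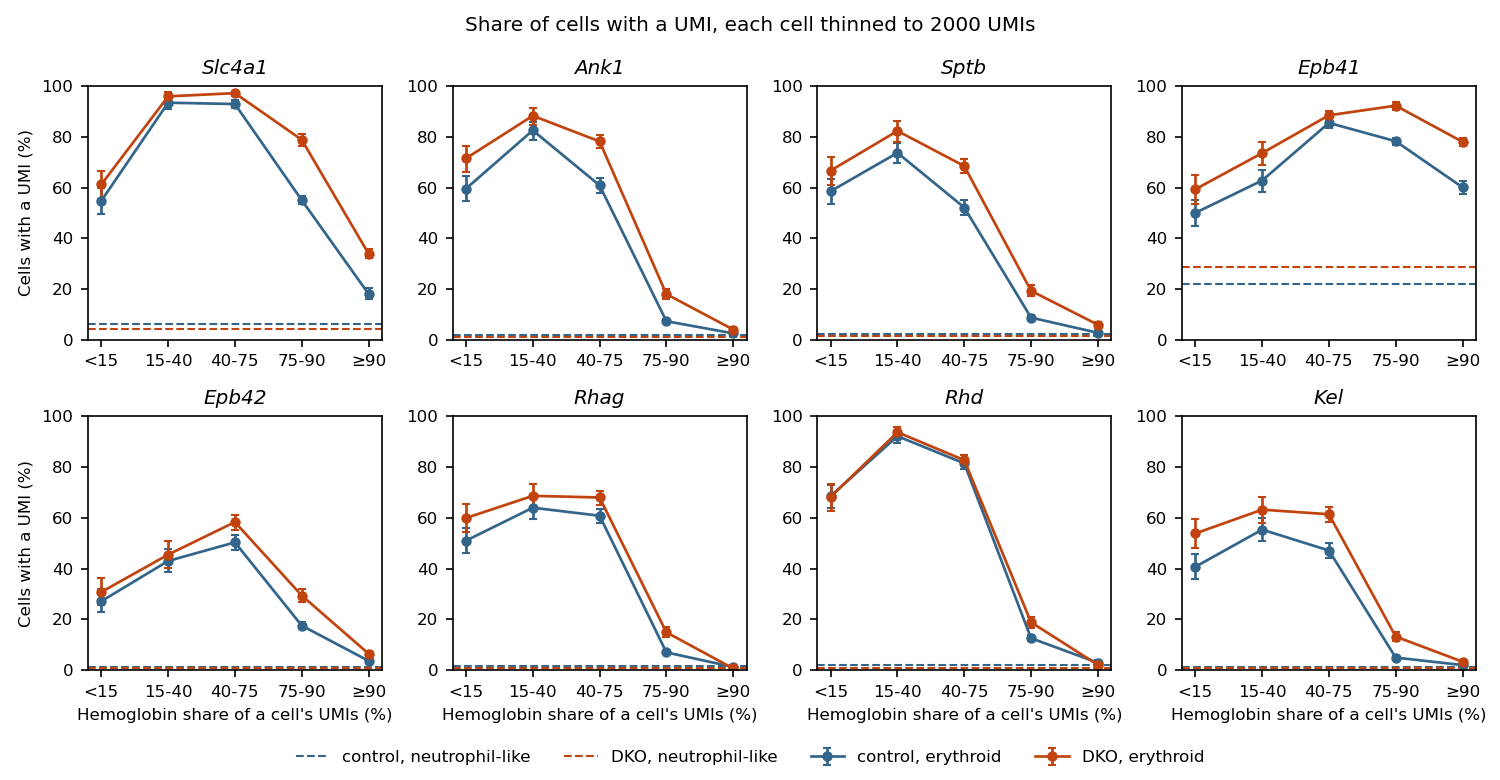
Share of cells with a UMI of each member (y axis, percent) after thinning each cell of at least 2000 UMIs to 2000 UMIs, by range of the hemoglobin share (x axis, percent), with exact binomial 95% intervals. Under 15%, 398 of 996 control and 312 of 710 DKO cells had that depth. Dashed lines give the share in neutrophil-like cells of the same library, 6.25% and 4.18% for Slc4a1. In the last range Rhag lies below its dashed line in both libraries, and Ank1, Sptb and Rhd lie close to theirs in the control library (2.51% beside 1.77% for Ank1, 2.74% beside 2.12% for Sptb).

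In neutrophil-like and B cell-like cells the members were low. Slc4a1 was at 43.5 CPM in control and 35.5 CPM in DKO neutrophil-like cells, and at 73.1 and 47.3 CPM in B cell-like cells. The other members but Epb41 were at 4.76 to 11.7 CPM in neutrophil-like cells. The last-range levels of Rhag (6.46 and 4.65 CPM) did not exceed its neutrophil-like levels of 8.36 and 5.59 CPM, and those of Rhd (13.1 and 9.06 CPM) lay near 11.7 and 4.76 CPM. The ratios of these genes in the last range are therefore not read as a direction. The 7 summed markers of other blood cells were at 2583 CPM (control) and 885 CPM (DKO) under 15%, and at 855 and 402 CPM at 75 to 90%. They were lower in the DKO library in every range, and their part in the ratios was not tested. In summed cells, fewer cells with a transcript and less of it per cell cannot be told apart from the level alone.

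The genes whose course was most like that of a member over the 10 combinations of range and library were found by Pearson correlation of log2(CPM + 5) over the 2122 genes that reached 100 CPM in a combination. This is a description over points that share libraries and the hemoglobin scale. Slc4a1 was most like Epb42 (0.990), Grina (0.989) and Azin1 (0.986). Ank1 was most like Usp25 (0.999), Sptb (0.998) and Galnt10 (0.998), and Sptb like Ank1, Pip4k2a (0.997) and Gypc (0.996). Ank1 and Sptb were thus among each other's nearest 3, as were Slc4a1 and Epb42, while Slc4a1 and Ank1 correlated at 0.857. Rhag was most like Herc1, Sox6 and Atp6v0a1 (0.999 each), Rhd like Fahd1 (0.997), Ppox and Cd47 (0.996 each), and Kel like Galnt10 (0.999), Ank1 and Fbxo42 (0.997 each). Epb42 was nearest to Rbm38 (0.996), Slc4a1 and Fzr1 (0.989). Epb41 had no near match, with Fam214b (0.922), Bsdc1 (0.921) and Slc25a51 (0.919) at the top and 0.30 to 0.73 with the other members.

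Other genes of the red cell membrane and skeleton, 42 in a list of spectrin partners, junction proteins, blood group and surface proteins and transporters, gave the wider setting. Under 15%, 37 passed 20 CPM, of which 1 was higher and 1 lower, beside 3.84% and 2.85% of all genes. At 15 to 40%, 3 of 35 were higher and 0 lower, beside 3.01% and 4.06%, and at 40 to 75% 4 of 30 were higher and 0 lower, beside 14.1% and 6.88%. At 75 to 90%, 16 of 20 were higher and 1 lower, beside 40.8% and 16.4% of all genes, with a median log2 ratio of 1.06. At 90% or more 1 of 5 was higher and 1 lower, beside 12.8% and 34.2%, and on the scale of UMIs outside hemoglobin genes 6 of 29 were higher and 10 lower.

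The highest and lowest listed genes differed by range. Under 15% the junction gene Add2 (0.59) and the mechanosensitive channel Piezo1 (0.56) had the highest log2 ratios, and Ackr1, the Duffy antigen receptor (-1.16), and Icam4, a blood group adhesion protein (-0.55), the lowest. At 15 to 40% Piezo1 (1.01) and the calcium pump Atp2b1 (0.64) were highest and Ackr1 (-0.48) and Cd55 (-0.29) lowest. Dematin (Dmtn, 0.75) and the nucleoside transporter Slc29a1 (0.71) led at 40 to 75%, with Mpp1 (-0.51) and Ackr1 (-0.45) at the other end. The lactate transporter Slc16a1 (1.55) and the exporter Abcg2 (1.49) led at 75 to 90%, where Actb, beta actin, was lowest at -0.85. At 90% or more Mpp1 was at 0.18, and Actb (-1.15) and Cd47 (-0.39) were lowest.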

How the data were processed

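Single-cell RNA-seq of 1 control and 1 DKO bone marrow was analysed, grouped by the genotype labels. The deposited files hold raw UMI counts per gene and barcode, which the authors made with Cell Ranger 7.1.0 (as the file headers give it) against mm10, per the submitters' processing notes. The control matrix lists 1518290 barcodes and the DKO matrix 14142 called cells, so control cells were called here (19198), with an order-of-magnitude threshold and a Monte Carlo test of barcodes from 500 UMIs up against those of at most 100 UMIs (10000 draws, false discovery rate 0.01). Cells over 20% mitochondrial UMIs were left out (171 control, 215 DKO), then doublets scored by Scrublet above the higher of the automatic thresholds, 0.226 (350 and 208 cells), a limit chosen after the scores had been seen.

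Both libraries were clustered together (2000 variable genes without the members, 30 principal components, 15 neighbors, Leiden resolution 1), and clusters were named from marker lists. The clustering was settled after several partitions had been seen: single short runs had moved with computing settings, so 10 starts were run to convergence and that of highest modularity kept, with 31 clusters. Named clusters are marker-based, and an erythroid-like cell need not be the study's. Cluster 30 (32 control, 15 DKO cells), named late erythroid-like, was also led by Arpp21 and Gfra2. In a partition seen earlier Rhd at 75 to 90% had been just past the fold limit.

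Counts of the 7563 control (45033707 UMIs) and 6381 DKO (58490038 UMIs) erythroid cells were summed per range and scaled to CPM, with exact Poisson intervals. Ratios had 1 count added and exact conditional binomial intervals, and shares exact Clopper-Pearson intervals. All are 95% and cover counting error only. With 1 library per genotype, no test was made, and the spread between mice was not measured. Members, gene lists and stage limits were chosen with earlier results of these data known. Named genes were all members, the 2 highest and lowest listed genes per range, the 3 most alike genes per member and 2 further listed genes, whose own values are not reported here although the counts and medians of the list include them. The ratio and interval code was tested on simulated data. Of the alternatives, 12 were planned. Leaving out low-UMI clusters, centring on all genes, the values within clusters, and the cells of each of the 10 starts were added after seeing the data. Clustering used scanpy 1.11.5, igraph 0.11.9 and scikit-learn 1.9.0, and statistics numpy 2.4.6, pandas 2.3.3 and scipy 1.17.1, in Python 3.11.15.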

Additional observations from a re-analysis of the deposited data

Results flagged for a closer look

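Control barcodes with at most 100 UMIs, which take part in no comparison, held UMIs of the members at 2075 CPM in sum (8451 of 4073556 UMIs), where a count of 3 would be 0.736 CPM. Slc4a1 was at 592 CPM, Epb41 at 475 CPM, Rhd at 214 CPM and Epb42 at 82.7 CPM in these barcodes, and hemoglobin genes made up 14.5% of their UMIs. The level of Slc4a1 in control erythroid cells under 15%, 583 CPM, was close to its level in these barcodes. Those of Epb41 (663 CPM), Rhd (721 CPM) and Epb42 (118 CPM) were higher than in the barcodes. No such barcodes were analysed for the DKO library, which was deposited as called cells.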

How the results depend on the processing

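How mice of a genotype vary is unknown, and the counting intervals are too narrow for a difference between genotypes. No paired analysis was possible because there was 1 library per genotype and no result comes from a test. Cells of the last range hold few UMIs outside hemoglobin, which limits Rhag, Rhd and Kel there. The control cells were called here and the DKO cells by the authors. In cells summed by range, no alternative turned the direction of a member past the fold limit. Within clusters, Ank1, Sptb and Epb42 were each below 0 in 3 of 9 clusters. Epb42 was at -0.53 in cluster 0, and Ank1 (-0.19) and Sptb (-0.28) were below 0 in cluster 22.

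The median log2 ratio of the 8 members under 15%, 0.12, became 0.30 with cells of at least 2000 UMIs, 0.32 above the order-of-magnitude threshold, 0.32 without the low-UMI clusters (12, 22 and 25) and 0.0124 relative to all genes. At 15 to 40% it became 0.23 with at least 2000 UMIs, 0.24 with the limits 5 points lower and 0.058 with equal weight per cell. At 40 to 75% it became 0.47 by the hemoglobin share alone, 0.25 with lower limits and 0.19 relative to all genes. At 75 to 90% it became 0.72 with lower limits, 0.73 matched on hemoglobin share and 0.59 relative to all genes, and at 90% or more 0.37 with lower limits.

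Members higher at 40 to 75% were 1 with lower limits, 0 at 2-fold and 0 relative to all genes, against 2. At 75 to 90% they were 3 at 2-fold and 4 relative to all genes, against 7. At 90% or more they were 3 above the order-of-magnitude threshold, 0 with lower limits, 2 at 50 CPM and 1 at 2-fold, against 5, and 1 member was lower with lower limits. The causes were not tested, except that 2-fold and 50 CPM are stricter by construction. The erythroid cells of the 10 clustering starts kept the median at 75 to 90% between 0.95 and 0.96, and the highest range was the same in all 160 combinations of start, member and library. Rhd at 75 to 90% ranged from 0.06 (matched) to 0.62 over 21 settings. Rhd at 40 to 75% changed sign in 1 of 21 settings, Slc4a1 and Epb42 under 15% in 1 and 2 of 20, Epb42 at 15 to 40% in 1 of 20 and Epb41 under 15% in 4 of 20. Thinning to 1000 UMIs moved 111 of 128 shares beyond their interval.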

Other observations

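Megakaryocyte-like cells held some members well above the neutrophil-like floor. Epb41 was at 642 CPM in 403 control and 623 CPM in 110 DKO megakaryocyte-like cells, and Sptb at 117 and 119 CPM. Slc4a1 (140.2 and 70.2 CPM) and Rhd (49.3 and 3.05 CPM, the latter from 2 UMIs) differed more between the libraries, beside a hemoglobin share of those cells of 23.5% (control) and 13.9% (DKO). In the macrophage-like cluster led by C1q genes, hemoglobin made up 59.0% of control and 61.7% of DKO UMIs. There Slc4a1 was at 269 and 287 CPM, Epb41 at 527 and 649 CPM, Ank1 at 24.9 and 21.2 CPM and Rhd at 37.7 and 15.3 CPM, over 654 control and 365 DKO cells. Whether this RNA belongs to those cells or to erythroid cells taken up with or attached to them was not tested. Epb41 differed in both directions between the libraries in other cells. Without overlap of the Poisson intervals, it was higher in DKO neutrophil-like (137 and 200.04 CPM), B cell-like (151 and 195 CPM), T or NK cell-like (167 and 256 CPM), progenitor-like (75.9 and 109 CPM) and macrophage-like cells. It was lower in DKO plasma cell-like cells, at 427 CPM (387 to 470) in 68 control and 81.1 CPM (63.6 to 102) in 55 DKO cells. All the other members were lower there too, for example Slc4a1 at 268 and 65.5 CPM and Kel at 64.7 and 13.3 CPM. Hemoglobin made up 8.41% of control and 1.91% of DKO UMIs of these cells, and whether the members' RNA came from erythroid cells was not tested. The intervals overlapped in megakaryocyte-like, stromal-like (434 and 360 CPM), monocyte-like, dendritic-like and basophil or mast-like cells.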
